A study of Mus musculus with 6 samples.

Results

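The genes described here encode 10 transcription factors through which hepatocytes sense lipids, bile acids, hormones and foreign compounds: the bile acid receptor FXR (Nr1h4) and its induced repressor SHP (Nr0b2), the oxysterol receptor LXR alpha (Nr1h3), the xenobiotic receptors PXR (Nr1i2), CAR (Nr1i3) and AHR (Ahr), the shared dimer partner RXR alpha (Rxra), the fatty acid receptors PPAR delta (Ppard) and PPAR gamma (Pparg), and the glucocorticoid receptor (Nr3c1). They were taken by gene name from a table of 55367 gene names, and all 10 were found and passed the filter on low counts, among 18703 genes tested. Whole-liver RNA was sequenced from 3 Lmln-KO livers (Lmln-/-, homozygous for disruption of Lmln) and 3 WT livers (wild type), all C57BL/6J. The Lmln-KO animals were 46 weeks old for replicates 1 and 2 and 39 weeks old for replicate 3, and the WT animals were 46 weeks old. No agent is named for either group. The labels do not give sex, feeding state, time of day or how the allele was made, and they do not say that each library came from its own animal, so p-values measure the spread between these libraries.

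As background, most of these proteins are nuclear receptors, which bind a small lipophilic molecule and then regulate genes through short hexamer elements in DNA. FXR, LXR, PXR, CAR and the PPARs do so as heterodimers with RXR. The glucocorticoid receptor acts mainly as a homodimer, SHP has no DNA-binding domain and represses other factors, and AHR belongs to a different family (bHLH-PAS) and pairs with ARNT. In liver FXR and SHP restrain bile acid synthesis, LXR drives sterol export and lipogenesis, PXR, CAR and AHR induce drug-metabolizing enzymes, and the glucocorticoid receptor sustains glucose output.

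None of the 10 receptor transcripts passed the test of a difference between Lmln-KO and WT livers, given the spread between libraries. In edgeR's quasi-likelihood test with Benjamini-Hochberg adjustment over all tested genes, 0 of 10 members passed an adjusted p of 0.05 (adjusted p between 0.933 and 0.998), where the share called among all tested genes was 0%. DESeq2 also called 0 of the 10, against 24 genes (0.139%) in all. The disrupted gene Lmln itself (log2 fold change -3.72 in edgeR) did not pass in edgeR either, at an adjusted p of 0.933. DESeq2 called Lmln at an adjusted p of 2.3e-06. Failing to pass in edgeR thus does not show an unchanged level. Unadjusted p-values under 0.05 were found for 871 genes (4.66%) and for 1 member, Nr1i2. With a term added for sex-linked transcripts, edgeR called 0 members and 1 gene in all (0.00535%), DESeq2 0 members and 31 genes in all (0.18%), and unadjusted p was again under 0.05 for Nr1i2 alone among members, where it was for 4.34% of all genes (2.65% lower and 1.69% higher). The receptors were grouped, after their values were seen, by the range between the highest and the lowest library. Nr1h3 (1.084-fold), Nr3c1 (1.09-fold), Rxra (1.194-fold) and Ppard (1.219-fold) ranged least. Nr0b2, Nr1i3, Pparg and Ahr ranged 2.42-fold to 3.93-fold. Nr1h4 and Nr1i2 lay between, with 1.285-fold and 1.425-fold ranges.

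The promoters of 3 members are shown because their transcripts either varied most between libraries (Nr0b2 and Nr1i3) or were lower in every Lmln-KO library (Nr1i2). Each line gives the 250 bases before the annotated start, 5′ to 3′ on the gene's strand, from RefSeq on GRCm38.p6. The positions are chr4:133553126-133553375 on the plus strand for Nr0b2, chr1:171213720-171213969 on the plus strand for Nr1i3 and chr16:38294825-38295074 on the minus strand for Nr1i2. Capitals mark matches to any of 4 short motifs, searched on both strands without overlap between matches in these windows: the nuclear receptor hexamer AGGTCA, the core TCAAGG bound by NR5A receptors, the glucocorticoid receptor hexamer AGAACA and the TATA box TATAAA.
Nr0b2: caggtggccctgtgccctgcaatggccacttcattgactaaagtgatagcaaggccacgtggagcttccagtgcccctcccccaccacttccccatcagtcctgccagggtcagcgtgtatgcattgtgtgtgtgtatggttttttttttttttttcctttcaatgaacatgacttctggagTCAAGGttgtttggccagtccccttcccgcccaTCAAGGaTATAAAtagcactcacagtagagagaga
Nr1i3: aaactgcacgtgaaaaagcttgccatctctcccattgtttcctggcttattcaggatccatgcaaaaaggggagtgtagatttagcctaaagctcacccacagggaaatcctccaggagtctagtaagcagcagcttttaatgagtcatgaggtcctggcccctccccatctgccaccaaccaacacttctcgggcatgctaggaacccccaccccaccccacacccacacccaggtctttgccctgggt
Nr1i2: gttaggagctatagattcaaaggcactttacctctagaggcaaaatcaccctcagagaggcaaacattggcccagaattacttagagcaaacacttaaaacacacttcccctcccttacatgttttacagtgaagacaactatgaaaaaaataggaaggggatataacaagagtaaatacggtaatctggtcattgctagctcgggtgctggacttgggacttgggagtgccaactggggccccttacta
The Nr0b2 window held the NR5A core at 68 and 35 bases before the start and a TATA box at 28 bases before it, and the Nr1i3 and Nr1i2 windows held none of the 4 motifs. Among 32851 RefSeq promoter windows of the same length, 14% held AGGTCA, 12.5% held TCAAGG, 16.1% held AGAACA and 12.4% held TATAAA. These matches describe letters only. NR5A2 (LRH-1) is known as an activator of Nr0b2. RefSeq promoters were matched for 8 of the 10 members.

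Library facts that touch these genes are few. Counts summed to between 20957895 and 22494696 in Lmln-KO libraries and between 17388360 and 18272045 in WT libraries. Between 2 and 12 reads of Lmln itself were counted per Lmln-KO library and between 39 and 80 per WT library. Lmln-KO replicates 1 and 2 and WT replicate 1 carried transcripts of 4 Y-linked genes (216.4 to 234.9 CPM, read counts scaled to library size), while Lmln-KO replicate 3 and WT replicates 2 and 3 carried Xist (1878 to 1947 CPM). Each genotype is therefore a mixture of these sets, and values are also given from a fit with a term for them, the sex-marker term. The first principal component (56.3% of the variance) separated the libraries with Y-linked transcripts from those with Xist. WT replicate 3 stood apart on the second principal component (15.8% of the variance). The 9 hepatocyte markers in the table summed to 100300, 106000 and 110500 CPM in Lmln-KO and to 121400, 112000 and 129100 CPM in WT. Marker sums of other cells ran from 330.6 to 380.8 CPM in Lmln-KO and from 377.4 to 472.6 CPM in WT for macrophages (15 genes), from 586.0 to 735.2 and from 657.5 to 674.8 CPM for sinusoidal endothelium (10 genes), from 416.1 to 589.3 and from 505.8 to 663.6 CPM for stellate cells and fibroblasts (10 genes), and from 69.2 to 95.8 and from 72.33 to 96.15 CPM for cholangiocytes (7 genes). B and plasma cell markers (8 genes) summed to between 20.83 and 38.62 CPM in Lmln-KO and to 38.84, 232.5 and 401.7 CPM in WT replicates 1, 2 and 3. By genotype alone, all 6 tested markers were lower in Lmln-KO at an unadjusted edgeR p under 0.05, where 3.14% of all tested genes were. With the sex-marker term 2 of the 6 were, where 2.65% of all tested genes were. T and NK cell markers (8 genes, 1 of them tested) summed to between 2.26 and 3.779 CPM in Lmln-KO and between 3.86 and 7.544 CPM in WT. Erythroid genes (5) summed to between 108.4 and 275.0 CPM in Lmln-KO and between 80.91 and 227.6 CPM in WT. No gene of these lists had 0 counts in every library. In whole liver, fewer cells of a type and less RNA per cell cannot be told apart.

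**Figure D1:**
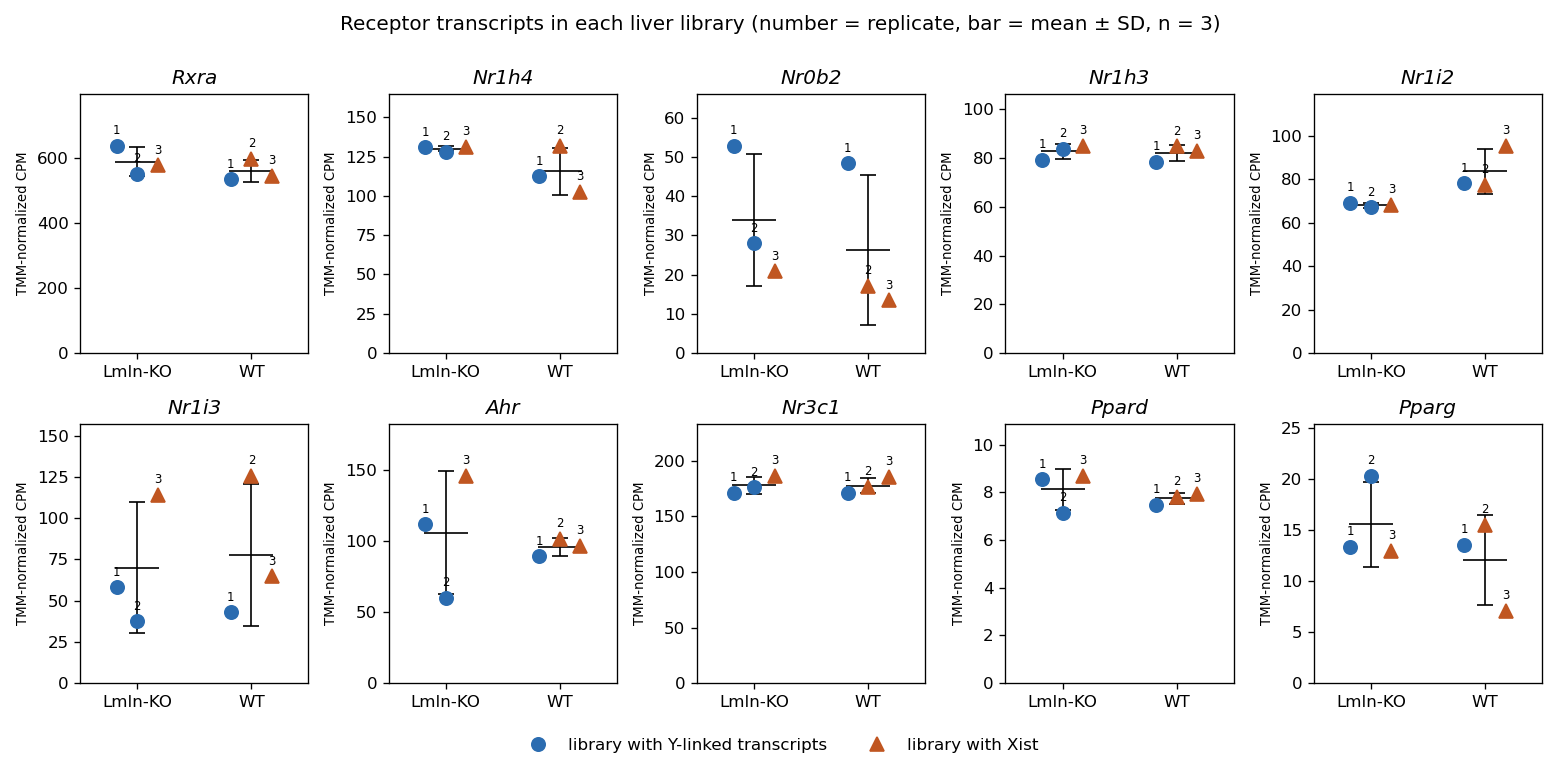
TMM-normalized CPM (y axes, from 0) of the 10 receptor genes in the 3 Lmln-KO and 3 WT libraries, with the replicate number at each point, circles for libraries with Y-linked transcripts, triangles for libraries with Xist, and bars for the mean ± SD. Nr1h3 and Nr3c1 are level across all 6 libraries, Nr1i2 is lower in every Lmln-KO library, and Nr0b2, Nr1i3, Ahr and Pparg spread widely within a genotype.

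Rxra (ENSMUSG00000015846.14, chromosome 2, 27676440 to 27762957 of GRCm38), the common heterodimer partner, had 637, 550.0 and 576 CPM in Lmln-KO replicates 1, 2 and 3, and 533, 597 and 545 CPM in WT replicates 1, 2 and 3. The groups overlapped, with the highest library a Lmln-KO one and the lowest a WT one. The Lmln-KO mean was 588 ± 44.4 CPM and the WT mean 558 ± 33.9 CPM (SD, n = 3 each). The log2 fold change was 0.07, with a 95% interval from -0.22 to 0.37. With 1 library left out it lay between 0.0184 (Lmln-KO replicate 1) and 0.12 (WT replicate 2).

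The bile acid pair differed in how steady it was. Nr1h4 (ENSMUSG00000047638.15, chromosome 10, 89454234 to 89533585) had 131, 128 and 131 CPM in the Lmln-KO libraries, and 112.5, 132 and 103 CPM in WT replicates 1, 2 and 3. The Lmln-KO libraries were nearly equal and WT replicate 2 matched them, while WT replicates 1 and 3 were lower. The Lmln-KO mean was 130.1 ± 1.88 CPM and the WT mean 116 ± 14.9 CPM (SD, n = 3 each), and the log2 fold change was 0.17 (95% interval -0.10 to 0.44). Leaving out WT replicate 3 gave 0.09, and leaving out WT replicate 2 gave 0.27.

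Nr0b2 (ENSMUSG00000037583.2, chromosome 4, 133553376 to 133556536), which encodes the repressor SHP, was the most variable member. It had 52.9, 28.0 and 20.8 CPM in Lmln-KO replicates 1, 2 and 3, and 48.4, 17.1 and 13.5 CPM in WT replicates 1, 2 and 3. Within each genotype the libraries with Y-linked transcripts were above those with Xist, and the highest library exceeded the lowest by 3.93-fold. The spread between replicates, with a coefficient of variation of 49.8% in Lmln-KO and 72.9% in WT, was far above the 3.01% to 6.54% that counting error gives at these depths. Counting took each read of a pair singly, so these counting errors are understated. The log2 fold change was 0.365 by genotype alone (95% interval -1.31 to 2.04) and 0.08 with the sex-marker term (-0.71 to 0.87). By genotype alone its sign turned without Lmln-KO replicate 1 (-0.11), and it was 1.15 without WT replicate 1, 0.13 without WT replicate 2 and 0.0505 without WT replicate 3. The level of this transcript was thus not shown to differ, and a change of more than 2-fold in either direction lies within the interval of the fit by genotype alone.

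Nr1h3 (ENSMUSG00000002108.10, chromosome 2, 91184061 to 91202834), the oxysterol receptor, was among the steadiest. It had 79.4, 83.7 and 85.1 CPM in Lmln-KO replicates 1, 2 and 3, and 78.6, 84.9 and 83.1 CPM in WT replicates 1, 2 and 3. All 6 libraries lay within a 1.08-fold range and the groups overlapped fully. The log2 fold change was 0.01, with an interval from -0.20 to 0.22.

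The xenobiotic receptors were unlike in their spread. Nr1i2 (ENSMUSG00000022809.4, chromosome 16, 38248323 to 38294824), PXR, had 69.3, 67.0 and 68.1 CPM in Lmln-KO replicates 1, 2 and 3, and 78.1, 77.35 and 95.5 CPM in WT replicates 1, 2 and 3. Every Lmln-KO library was below every WT library, and WT replicate 3 was the highest. It was the only member whose groups did not overlap, 1 of 10, where 5.73% of all tested genes were lower without overlap, 4.61% higher, and 10.3% did not overlap in either direction. The Lmln-KO mean was 68.2 ± 1.15 CPM and the WT mean 83.7 ± 10.3 CPM (SD, n = 3 each). Its log2 fold change was -0.30 (SE 0.112), with an unadjusted p of 0.0297 and an edgeR adjusted p of 0.933, so it did not pass. With the sex-marker term it was -0.27 (edgeR adjusted p 0.987), and Lmln-KO minus WT came to -0.20 among libraries carrying Y-linked transcripts and to -0.335 among those carrying Xist. WT replicate 1 was the only WT library of the first set. Lmln-KO replicate 3, aged 39 weeks, was the only Lmln-KO library of the second set, where age and genotype cannot be told apart. Without WT replicate 3, also the library with the most B and plasma cell transcripts, the log2 fold change was -0.19, and the part of those cells in the value was not tested.

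Nr1i3 (ENSMUSG00000005677.14, chromosome 1, 171213970 to 171220701), CAR, had 58.0, 37.4 and 114 CPM in Lmln-KO replicates 1, 2 and 3, and 42.8, 126 and 64.7 CPM in WT replicates 1, 2 and 3. Lmln-KO replicate 3 and WT replicate 2, both with Xist, were the high libraries, and the groups overlapped. Its log2 fold change was -0.15 by genotype alone (95% interval -1.68 to 1.37) and turned to 0.21 with the sex-marker term (-0.63 to 1.05). An annotated transcript of the antisense gene Tomm40l, an outer mitochondrial membrane channel protein (171216011 to 171222514), covers 3304 of the 4414 exon bases of Nr1i3 (74.9%) and 806 of its 1074 coding bases (75%). The command line of the counting gives no option for strand or for reads that overlap several genes, and these counts may therefore miss much of Nr1i3. Tomm40l had 16.3, 7.79 and 26.5 CPM in Lmln-KO replicates 1, 2 and 3, and 10.9, 36.4 and 17.2 CPM in WT replicates 1, 2 and 3. It was high and low in the same libraries as Nr1i3, and the ratio of Nr1i3 to Tomm40l stayed between 3.46 and 4.8. These counts do not give the level of either gene where their exons overlap, and the cause of the likeness was not tested.

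Ahr (ENSMUSG00000019256.17, chromosome 12, 35497974 to 35535038) had 112, 60.1 and 146 CPM in Lmln-KO replicates 1, 2 and 3, and 89.1, 101 and 96.3 CPM in WT replicates 1, 2 and 3. The WT libraries lay close together, between Lmln-KO replicate 2 below and Lmln-KO replicates 1 and 3 above. The coefficient of variation was 40.7% in Lmln-KO and 6.41% in WT, and the log2 fold change was 0.15 (95% interval -0.58 to 0.87). It was 0.43 without Lmln-KO replicate 2, but -0.15 without Lmln-KO replicate 3, the 39-week-old animal. The difference in spread between the groups was not tested.

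Nr3c1 (ENSMUSG00000024431.15, chromosome 18, 39410545 to 39519421), the glucocorticoid receptor, had 171, 176 and 186.5 CPM in Lmln-KO replicates 1, 2 and 3, and 171, 176 and 185 CPM in WT replicates 1, 2 and 3. All 6 libraries lay within a 1.09-fold range and the groups overlapped fully. Its log2 fold change of 0.0018 had an interval from -0.23 to 0.24.

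The PPAR genes were the lowest members. Ppard (ENSMUSG00000002250.16, chromosome 17, 28232700 to 28301474) had 8.55, 7.13 and 8.70 CPM in Lmln-KO replicates 1, 2 and 3, and 7.48, 7.81 and 7.95 CPM in WT replicates 1, 2 and 3. With 126 to 204 counts per library, its counting error of 7.001% to 8.91% was of the size of its spread (10.6% in Lmln-KO and 3.08% in WT). The log2 fold change was 0.07 (95% interval -0.27 to 0.41), and with 1 library left out it lay between 0.0249 (Lmln-KO replicate 3) and 0.16 (Lmln-KO replicate 2).

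Pparg (ENSMUSG00000000440.12, chromosome 6, 115360951 to 115490399), the lipid storage receptor, had 13.35, 20.3 and 12.96 CPM in Lmln-KO replicates 1, 2 and 3, and 13.5, 15.5 and 7.08 CPM in WT replicates 1, 2 and 3. Lmln-KO replicate 2 was the highest and WT replicate 3 the lowest, and the other libraries overlapped. Its log2 fold change was 0.37 (95% interval -0.38 to 1.12), or 0.13 with Lmln-KO replicate 2 left out and 0.10 with WT replicate 3 left out. Adipocyte markers (5 genes, 1 of them tested) summed to 2.498, 2.929 and 0.2558 CPM in Lmln-KO and to 7.423, 0.107 and 0.1152 CPM in WT. Cfd, which is not particular to adipocytes, made up most or all of the sum in each Lmln-KO library (2.498, 2.551 and 0.1705 CPM). The same held for WT replicate 1 (7.364 CPM), while Cfd was at 0 in WT replicates 2 and 3. Lep (0.09447 CPM, 2 reads) and Retn (0.2834 CPM, 6 reads) were counted in Lmln-KO replicate 2 alone, the library with the most Pparg. Plin1 instead had 0 reads in every Lmln-KO library and 1, 2 and 2 reads in WT replicates 1, 2 and 3. Adipoq was at 0 in all libraries but Lmln-KO replicate 3 (0.08527 CPM). Their part in the Pparg values was not tested.

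**Figure D2:**
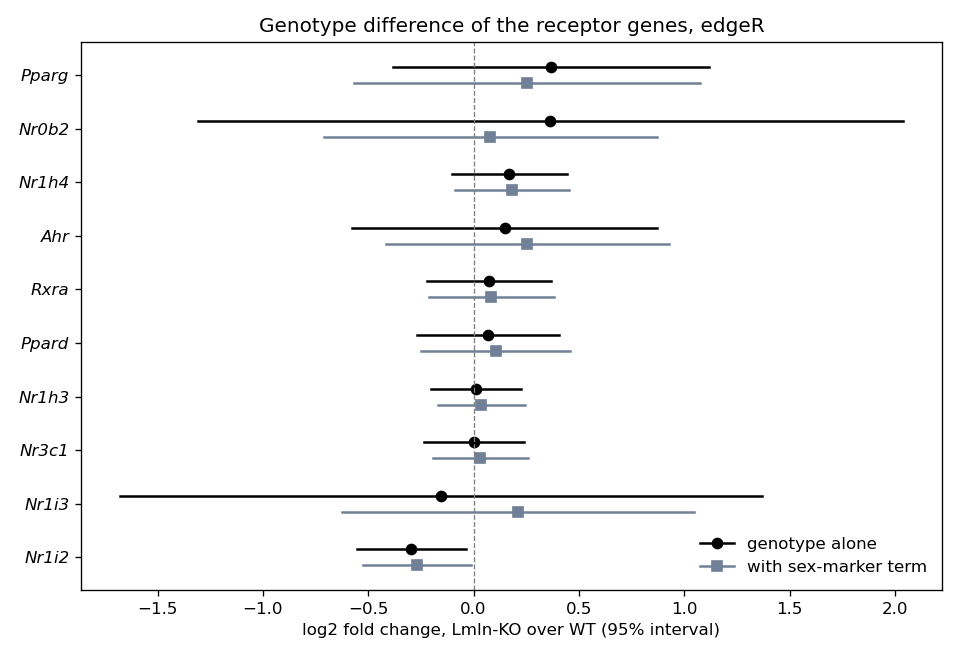
Log2 fold change of each receptor gene, Lmln-KO over WT (x axis), with 95% intervals from edgeR by genotype alone (black circles) and with the sex-marker term (grey squares). The Nr1i2 intervals alone lie below 0, before adjustment over the tested genes, and by genotype alone the intervals of Nr0b2 and Nr1i3 are the widest.

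The receptors could be ordered by level only per length, here as CPM per kilobase of summed exon over all 6 libraries. Rxra was highest, at 90.9 ± 6.16 (SD, n = 6), above Nr1h4 at 53.4 ± 5.35, and each of these was apart from the next in every library. Then followed Nr1h3 at 32.8 ± 1.12, Nr1i2 at 29.7 ± 4.20, Nr0b2 at 26.6 ± 14.7, Nr3c1 at 23.1 ± 0.867, Nr1i3 at 16.7 ± 8.44 and Ahr at 16.3 ± 4.56. The ranges of neighbours in that stretch overlapped, so their order does not hold beyond their spread. Pparg at 4.67 ± 1.45 and Ppard at 1.06 ± 0.0804 were each below the one before in all 6 libraries. The place of Nr1i3 depended on the length used. Per kilobase of the 1110 exon bases not shared with another gene it ranged from 33.7 to 113.2 with a mean of 66.5, which would put it at rank 2 in place of rank 7, with a range that overlaps those of Rxra and Nr1h4.

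**Figure D3:**
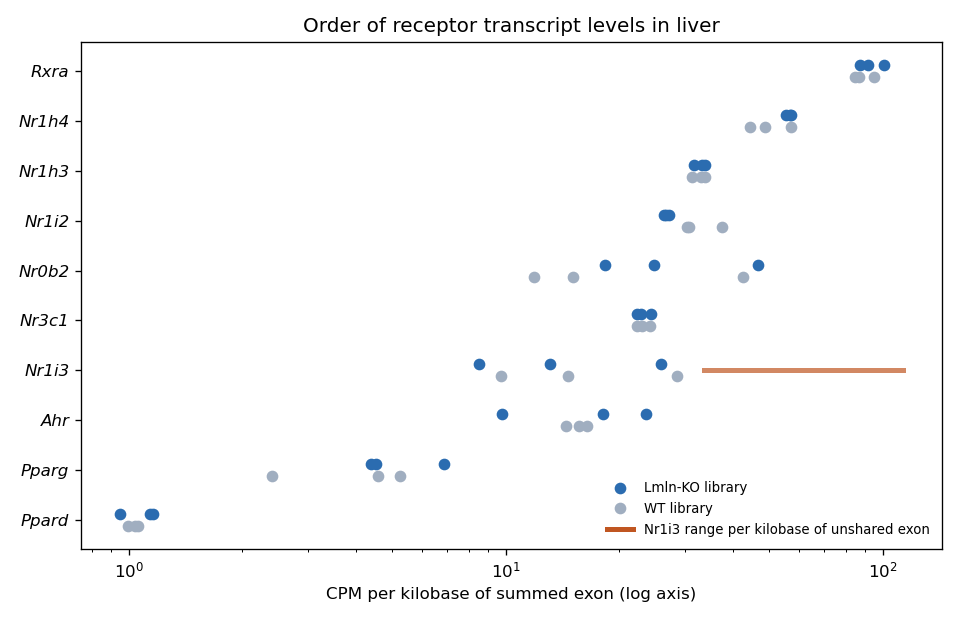
Level of each receptor gene as CPM per kilobase of summed exon (log axis) in every Lmln-KO library (blue) and WT library (grey), ordered by the mean. The bar shows Nr1i3 per kilobase of exon that no other gene shares, from 33.7 to 113.2, far to the right of its points.

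Genes that these receptors are known to regulate were then described by lists, beside all tested genes, whose median log2 fold change was -0.0038 with 50.6% of values negative. No list member passed in edgeR (0 of each list, against 0% of all genes). The lists were drawn up with earlier results of these data known, so no count below is independent evidence of a direction.

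Glucocorticoid receptor targets had a median log2 fold change of -0.63, with 20 of 23 tested genes negative. By unadjusted p under 0.05, 6 were lower in Lmln-KO and 1 higher (30.4% of the list, against 4.66% of all tested genes, 3.14% lower and 1.52% higher). G6pc, glucose-6-phosphatase of glucose release, had 489.2, 613.4 and 521.3 CPM in Lmln-KO replicates 1, 2 and 3, and 1290, 989.2 and 1076 CPM in WT replicates 1, 2 and 3. Tsc22d3, the glucocorticoid-induced leucine zipper GILZ, had 81.2, 49.6 and 81.5 CPM in Lmln-KO replicates 1, 2 and 3, and 106, 111 and 161 CPM in WT replicates 1, 2 and 3. Neither gene's groups overlapped, and edgeR's adjusted p was 0.933 for each, with log2 fold changes of -1.05 (SE 0.162) and -0.83 (SE 0.241). Pck1, the gluconeogenic carboxykinase, and Errfi1, an inhibitor of EGF receptor signalling, were also lower without overlap (log2 fold changes -0.87 and -0.39). Of the list, 4 genes were lower without overlap and 1 higher, where 5.73% of all tested genes were lower and 4.61% higher. DESeq2 called G6pc (adjusted p 2.3e-06 by genotype and 4.32e-09 with the sex-marker term).

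With the sex-marker term DESeq2 also called Igfbp1, which binds insulin-like growth factors (-2.17 in edgeR, DESeq2 adjusted p 2.11e-10), the clock gene Per1 (-0.86, 0.0055) and Lpin1, a phosphatidate phosphatase (-1.03, 0.00683), all lower in Lmln-KO. Those 3 are named after their values were seen. Fkbp5, the cochaperone widely used as a readout of this receptor and also named after its values were seen, had 23.01, 25.1 and 98.2 CPM in Lmln-KO replicates 1, 2 and 3, and 14.2, 93.9 and 81.4 CPM in WT replicates 1, 2 and 3. It was high in every library with Xist and low in every library with Y-linked transcripts, in both genotypes. Within each of these sets Fkbp5 was higher in every Lmln-KO library than in every WT library, opposite in direction to the list's median. The list's median was -0.45 with the sex-marker term, where 17 of 23 tested genes were negative and 6 positive. By genotype alone the median was -0.32 without WT replicate 3 and -0.92 without WT replicate 1. Among libraries carrying Y-linked transcripts it was -0.30, with WT replicate 1 as the only WT library. Among those carrying Xist it was -0.74, with Lmln-KO replicate 3, aged 39 weeks, as the only Lmln-KO library. In that set age and genotype cannot be told apart. Nr3c1 itself had a log2 fold change of 0.0018.

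LXR targets had a median of -0.19 with 13 of 16 genes negative, and -0.24 with 15 of 16 negative once the sex-marker term was added. Unadjusted p was under 0.05 for 3 genes, all lower (18.8% of the list, where 3.14% of all tested genes were lower). Without overlap, 4 genes were lower, where 5.73% of all tested genes were. Lpcat3, which builds polyunsaturated phospholipids, had 76.9, 83.2 and 82.2 CPM in Lmln-KO replicates 1, 2 and 3, and 93.4, 94.7 and 107 CPM in WT replicates 1, 2 and 3. Abcg5 had 73.3, 86.6 and 106.8 CPM in Lmln-KO replicates 1, 2 and 3, and 119, 116 and 262 CPM in WT replicates 1, 2 and 3. It forms with Abcg8 the sterol exporter into bile, and both were lowest in Lmln-KO and highest in WT replicate 3. Abcg8 had 119, 130.2 and 134 CPM in Lmln-KO replicates 1, 2 and 3, and 168, 156.5 and 363 CPM in WT replicates 1, 2 and 3. Abcg1, a cholesterol exporter also strong in macrophages, averaged 16.3 ± 0.805 CPM in Lmln-KO livers, against 19.1 ± 1.495 CPM in WT livers (SD, n = 3 each), without overlap. All 15 macrophage markers had negative log2 fold changes (median -0.18). Their median difference was 0.0012 among libraries carrying Y-linked transcripts and -0.38 among those carrying Xist. In the latter set age and genotype cannot be told apart. The part of macrophages in the Abcg1 value was not tested. Scd1, the fatty acid desaturase and the single gene of the list that DESeq2 called with the sex-marker term (edgeR log2 fold change -1.06, DESeq2 adjusted p 0.00214), is named after its values were seen. The list's median stayed between -0.24 and -0.16 over all 16 alternatives, while Nr1h3 was level.

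**Figure D4:**
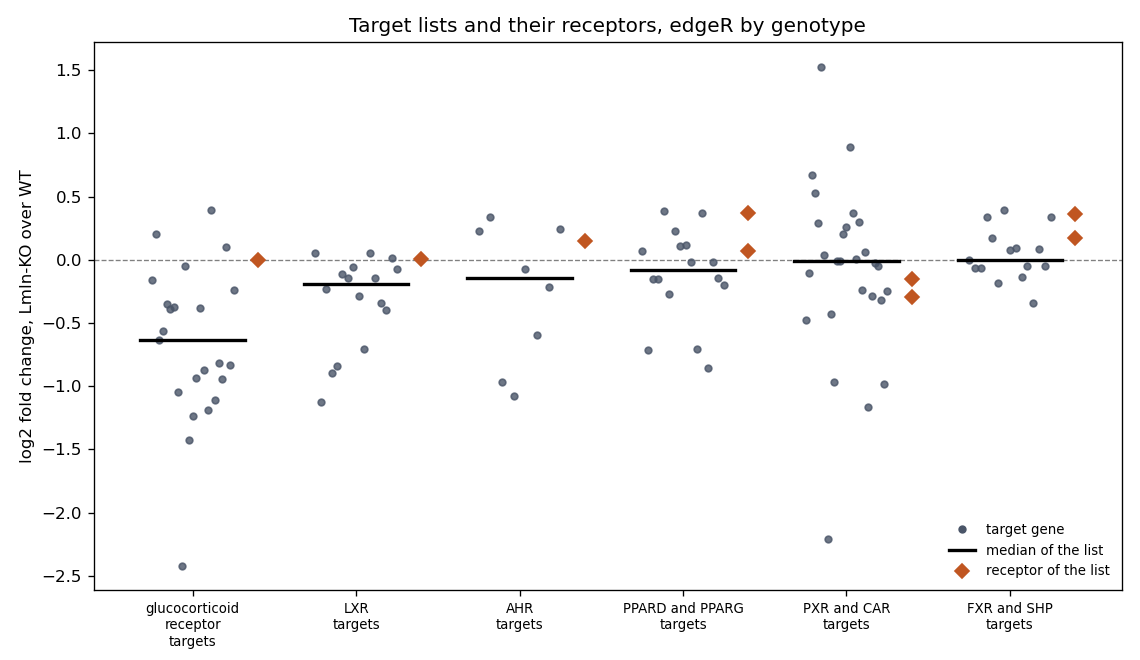
Log2 fold change, Lmln-KO over WT, of each tested target gene (dots), the median of its list (bar) and the receptors of that list (diamonds), from edgeR by genotype. The glucocorticoid receptor and LXR lists lie mostly below 0, with medians of -0.63 and -0.19, and their receptors Nr3c1 and Nr1h3 lie at 0.

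FXR and SHP targets were centred on 0, with a median of 0.0001 and 8 of 15 tested genes positive, and 0 had an unadjusted p under 0.05. Their smallest p-values belonged to Baat, a bile acid conjugating enzyme (log2 fold change 0.17), Apoc2, a lipoprotein lipase cofactor (0.33), the phospholipid transfer protein Pltp (-0.34) and Fgfr4, the receptor of the intestinal bile acid hormone (0.09). The bile salt exporter Abcb11, named after its values were seen, averaged 857 ± 106.5 CPM in Lmln-KO livers, against 857 ± 13.1 CPM in WT livers (SD, n = 3 each).

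PXR and CAR targets had a median of -0.01, with 12 of 27 tested genes positive and 0 with an unadjusted p under 0.05. Adding the sex-marker term turned the median to 0.0817, with 14 positive. With it 2 genes were higher at an unadjusted p under 0.05, where 1.69% of all tested genes were. They were Cyp2b13 (0.59) and Cyp3a44 (0.47), named after their values were seen (edgeR adjusted p 0.987 each). By genotype alone, the smallest p-values of the list belonged to Gadd45b, a stress-induced signalling protein (log2 fold change -1.16), the carboxylesterase Ces2c (1.52), the heme synthesis enzyme Alas1 (0.67) and Cyp2b10, the classical CAR-induced enzyme (-2.20). Cyp2b10 had 0.3843, 1.46 and 12.02 CPM in Lmln-KO replicates 1, 2 and 3, and 1.247, 13.1 and 50.3 CPM in WT replicates 1, 2 and 3. It was high in the libraries with Xist, highest in WT replicate 3, and its interval ran from -6.98 to 2.57. Of the list, 5 genes are also in the sex-biased lists. Cyp3a11, the main PXR-induced enzyme of mouse liver and named after its values were seen, averaged 1587 ± 727.5 CPM in Lmln-KO livers, against 1225 ± 224 CPM in WT livers (SD, n = 3 each). Its groups overlapped, and its interval ran from -0.41 to 1.16.

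AHR targets (8 tested of 10) had a median of -0.14 with 5 negative, which turned to 0.16 without WT replicate 2. Cyp1b1, a steroid and xenobiotic hydroxylase, was the single gene with an unadjusted p under 0.05 (log2 fold change -0.96, p 0.0345, edgeR adjusted p 0.933). That is 12.5% of the tested list, against 4.66% of all tested genes. The others with the smallest p-values were Cyp1a2, the abundant hepatic AHR target (0.34), the hormone Fgf21 (-1.08) and the glucuronosyltransferase Ugt1a6a (0.24), a gene whose exons are partly shared with its relatives. Cyp1a2 averaged 423.5 ± 70.7 CPM in Lmln-KO livers, against 335 ± 92.4 CPM in WT livers (SD, n = 3 each), with overlapping groups. It did not follow the library order of Ahr, since Lmln-KO replicate 2, lowest for Ahr, was highest for Cyp1a2 at 504.6 CPM.

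PPAR delta and gamma targets (16 tested of 18) had a median of -0.08 with 10 negative and 0 with an unadjusted p under 0.05. The smallest p-values belonged to the lipoprotein lipase Lpl (log2 fold change -0.71), its inhibitor Angptl4 (-0.71), the pyruvate dehydrogenase kinase Pdk4 (-0.86) and the mitochondrial fatty acid carrier enzyme Cpt1a (-0.27). With the sex-marker term the median was 0.0004.

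Among 32 tested other nuclear receptors, the median was -0.04 with 20 negative, and unadjusted p was under 0.05 for 2 lower genes and 1 higher gene (9.38%, against 4.66%). Nr4a1, an orphan receptor rapidly induced on stimulation, had 1.78, 6.00 and 2.90 CPM in Lmln-KO replicates 1, 2 and 3, and 24.35, 6.42 and 11.75 CPM in WT replicates 1, 2 and 3. Its relative Nr4a3 had under 0.5 CPM in Lmln-KO and between 0.8024 and 0.8908 CPM in WT. Both were lower without overlap (log2 fold changes -1.99 and -1.82), and neither passed (edgeR adjusted p 0.933 each). Nr3c2, the mineralocorticoid receptor, which also binds glucocorticoids, averaged 49.3 ± 3.357 CPM in Lmln-KO livers, against 40.8 ± 4.12 CPM in WT livers (SD, n = 3 each), higher without overlap (log2 fold change 0.27, edgeR adjusted p 0.933). The estrogen-related receptor Esrra was higher without overlap as well, at a log2 fold change of 0.19. Of the 32 genes, 2 were lower and 3 higher without overlap, where 5.73% of all tested genes were lower and 4.61% higher.

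Partners and coregulators (23 tested of 24) had a median of -0.01 with 11 positive. Hsp90aa1, a chaperone that holds the glucocorticoid receptor and AHR in a ligand-ready state, averaged 49.3 ± 6.07 CPM in Lmln-KO livers, against 40.1 ± 3.98 CPM in WT livers (SD, n = 3 each). It was the single gene of the list with an unadjusted p under 0.05 (log2 fold change 0.30, edgeR adjusted p 0.933). That is 4.35% of the tested list, against 4.66% of all tested genes. The coactivators Ppargc1a and Ppargc1b and the cochaperone Fkbp4 followed, at log2 fold changes of -0.75, -0.28 and 0.16.

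Nr1i2 had the smallest p of the members, and the genes nearest to its pattern over the 6 libraries were Jrkl, the signal transducer Stat5b, Rhpn2 and Wdr19, among 11394 candidates with a mean log2 CPM of at least 1. The measure was the root mean square difference of log2 CPM centred on each gene's mean, from 0.0341 for Jrkl to 0.0431 for Wdr19. Stat5b had 73.9, 76.8 and 73.5 CPM in Lmln-KO replicates 1, 2 and 3, and 85.5, 81.5 and 105.6 CPM in WT replicates 1, 2 and 3, with WT replicate 3 highest as for Nr1i2. The likeness is a description of these libraries.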

How the data were processed

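Whole-liver RNA of 3 Lmln-KO and 3 WT samples was measured by paired-end sequencing of rRNA-depleted RNA with a directional kit, per the labels' protocols. The authors deposited whole-number read counts for each gene name, without normalization. Per the file headers, reads were counted by featureCounts 2.0.1 over exons of Ensembl release 102 on GRCm38, with no option for pairs, strand, multi-mapping or overlapping genes. Subread 2.0.2 and edgeR 3.36.0 are also listed, per the submitters' processing notes. No aligner is named in the sources used here. Library totals were 17388360 to 22494696.

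From the counts, edgeR 4.0.16 in R 4.3.3 was used with TMM scaling, filterByExpr at a minimum count of 10 (18703 genes), a robust quasi-likelihood fit by genotype, and p-values adjusted by Benjamini-Hochberg over all tested genes at 0.05. Each standard error is the size of the log2 fold change over the square root of F, and 95% intervals use the test's degrees of freedom. Levels are TMM-normalized CPM. The sex-marker term separates libraries by Xist against summed Y-linked CPM and was never a comparison of its own. Within-set differences are of mean log2 CPM (prior count 2). The members, the lists and the term were chosen with earlier results of these data known.

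Genes named by rule beside the members are the 4 of each list with the smallest p, and the 4 genes nearest to the member with the smallest p. Other list genes are marked in the text as named after their values were seen. Lmln, Xist, marker genes and Tomm40l, which overlaps Nr1i3, are named besides. Alternatives were other scalings, DESeq2 1.42.0, limma-voom (limma 3.58.1), other filters, a replicate block, leaving out each library and the sex-marker term. Every pair of libraries differed by more than counting noise (smallest chi-square over its degrees of freedom 10.9). The fits were tested on simulated data with known changes.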

Additional observations from a re-analysis of the deposited data

How the results depend on the processing

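No member passed under any of the 16 alternatives by genotype or the 8 with the sex-marker term. Over all genes, edgeR called 0 by genotype and 0 to 3 when 1 library was left out (3 without WT replicate 1). DESeq2 called 24, edgeR without a filter on low counts 3, edgeR with the replicate block 1, edgeR with the sex-marker term 1 and DESeq2 with it 31. With the term, leaving out 1 library gave 0 to 4, and adding the replicate block gave 16. Same-numbered samples share only a number: their deviations from the group means correlated at 0.46, -0.31 and 0.41 for numbers 1, 2 and 3, and not every sample correlated best with its own number. With the block, Nr0b2 was 0.48 and Nr1i3 was -0.13, and with the block and the sex-marker term together Nr1i3 was 0.63 (unadjusted p 0.00215, edgeR adjusted p 0.316). No member passed under either.

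Signs turned for values near 0 or with wide intervals. Nr1i3, at -0.15, became 0.21 with the sex-marker term in edgeR and 0.22 in DESeq2, and ran from -0.70 to 0.38 when 1 library was left out. Nr1h3 was -0.0165 under upper quartile scaling and ran from -0.0192 to 0.0447 over the libraries left out. Nr3c1 was -0.0245 under upper quartile scaling, -0.0014 with at least 1 CPM in 3 libraries, and ran from -0.0259 to 0.0352. Nr0b2 ran from -0.11 to 1.15 by genotype and from -0.25 to 0.44 with the term (-0.0782 with Lmln-KO replicate 1 left out, -0.0414 with WT replicate 3 left out). Ahr ran from -0.15 to 0.43 by genotype and from -0.0481 to 0.56 with the term. Nr1i2 stayed between -0.35 and -0.19 over its 16 alternatives (edgeR, DESeq2 or limma-voom adjusted p 0.549 to 1). The causes were not tested. Upper quartile scaling moved the median of all genes by -0.026, and other scalings by less. Among the members, counting errors were largest for Ppard and Pparg, at up to 8.91% and 9.02%, and these are understated because both reads of a pair were counted.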
